A study of Homo sapiens with 12 samples.

Results

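The comparison described here is HMC-1.3 clone 2 against its parental line HMC-1.2. All libraries whose titles name one of these groups were taken, 3 of each, which makes 6 of the 12 libraries and 2 of the 4 groups of the series, and 15944 of 58381 genes had enough counts to be tested. HMC-1 is a human mast cell leukemia line. HMC-1.2 cells carry both V560G-KIT and D816V-KIT, and HMC-1.3 cells carry D816V-KIT alone because the V560G change was reverted in HMC-1.2 cells with CRISPR/Cas9. The edited cells were selected with puromycin and cloned by limiting dilution, so clone 2 descends from a single cell and received an editing step that HMC-1.2 did not, and the reverted codon and the history of this clone cannot be told apart in this comparison alone. The edit also left a silent change in a neighbouring codon. HMC-1.3 clone 1 is a second line made the same way, and HMC-1.1 a sister subline with V560G-KIT alone. Both are used below only to show where clone 2 differs from them or lies near them. The labels name no treatment of any group, and libraries were made from messenger RNA with a stranded kit.

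KIT is the receptor tyrosine kinase for stem cell factor, and mast cells depend on it to survive. Binding of the ligand pairs 2 receptors, which activates the kinase and passes signals through PI3 kinase and AKT, through RAS and ERK, and through STAT5. Changes in the juxtamembrane segment or in the activation loop let the kinase signal without ligand. The codons in question lie on chromosome 4 of hg38. They are shown with the flanking reference bases on the plus strand, in the coding sequence of transcript ENST00000288135.6, with the affected codon in capitals. Codon 560, at chr4:54727446-54727448, lies in exon 11 and encodes valine in the reference. Codon 816, at chr4:54733154-54733156, lies in exon 17 and encodes aspartate. Clone 2 and HMC-1.2 differ by design at the first and share the change at the second.
KIT codon 560, chr4:54727416-54727478: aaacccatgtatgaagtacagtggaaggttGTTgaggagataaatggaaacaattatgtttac
KIT codon 816, chr4:54733124-54733186: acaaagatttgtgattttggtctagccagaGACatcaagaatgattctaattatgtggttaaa

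The counts were expected counts per gene from RSEM, with totals of 29225900 to 36794166 in HMC-1.2 and of 34656242 to 43181402 in clone 2. Below, levels are in CPM, the counts relative to the library total after scaling by TMM factors, and FPKM, which also divides by transcript length, is used where different genes are compared. A gene is called changed at a Benjamini-Hochberg adjusted p under 0.05 in edgeR's quasi-likelihood test and a fold change over 1.5. The 3 libraries of a group came from cells plated in triplicate, so p-values measure the spread between these platings. KIT transcripts, which do not show the genotype, read 1726, 1644 and 1677 CPM in HMC-1.2 and 1871, 1859 and 1905 CPM in clone 2, a log2 fold change of 0.16 ± 0.03 (SE, adjusted p = 0.0003) that was under the fold limit. Of 12 mast cell markers 11 were tested, and the sum of the 12, in CPM without TMM scaling as for all marker sums here, was 4880 to 4920 CPM in HMC-1.2 and 4332 to 4410 CPM in clone 2. No T cell or neutrophil marker passed the filter, and the sums of those lists stayed between 0.0255 and 0.517 CPM in both groups. The sums were 4.04 to 5.03 CPM in HMC-1.2 and 2.25 to 2.39 CPM in clone 2 for B cell markers, 2.63 to 3.14 and 2.11 to 2.27 CPM for monocyte markers, and 1.13 to 1.61 and 1.83 to 3.26 CPM for erythroid markers. ITGA2B alone carried the megakaryocyte list, at 1354 to 1383 CPM in HMC-1.2 and 1849 to 1931 CPM in clone 2 for the list, with PPBP, PF4 and GP9 at 0. KRT19 carried the epithelial list, at 492 to 505 and 243 to 258 CPM, and the fibroblast list summed to 0.938 to 1.09 and 0.837 to 1.53 CPM. Fewer cells of a kind and less RNA per cell cannot be told apart in such bulk samples.

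Clone 2 differed from HMC-1.2 in 2630 of 15944 genes (16.5%), of which 1273 were higher (7.98%) and 1357 lower (8.51%) in clone 2. These shares are the ones to set beside the counts of every gene list below. Falls were larger than rises, with a median size of 1.23 against 1.03 on the log2 scale. More than 16-fold changes were found in 106 genes that fell and in 39 that rose. Over all genes tested the median log2 fold change was 0.00, and in 56.0% of them the 3 libraries of one group lay wholly on one side of the 3 of the other. Among protein-coding genes 16.4% were called, and among long non-coding genes 18.6%. The plot of every gene shows large changes over a wide range of levels, up to genes such as ITGAL and TPSAB1 at 406 and 575 CPM in HMC-1.2. The median level was 7.29 CPM in clone 2 for called rises and 4.08 CPM in HMC-1.2 for called falls.

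**Figure D1:**
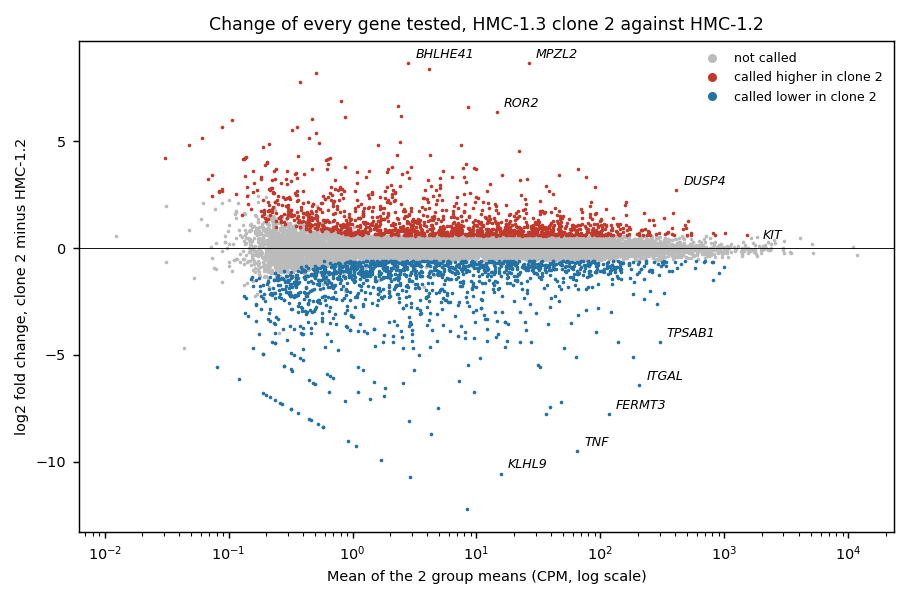
Log2 fold change of each gene tested and reported, clone 2 minus HMC-1.2, against the mean of the group means in CPM on a log scale. Called genes are red where higher and blue where lower in clone 2, and TNF and FERMT3 fell from above 100 CPM while KIT lies in the uncalled band.

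The 12 largest falls included genes of several kinds. TNF, the inflammatory cytokine, read 127, 132 and 126 CPM in HMC-1.2 and 0.497, 0.0256 and 0.0462 CPM in clone 2, a log2 fold change of -9.52 ± 0.18 (SE, adjusted p = 7.2e-17). Each clone 2 library was below 1 CPM, and the first of them was the highest. FERMT3, the kindlin that activates integrins in blood cells, read 228, 237 and 231 CPM against 0.935, 1.1 and 1.11 CPM (-7.78 ± 0.08, adjusted p = 3.5e-20). SIGLEC12, a sialic acid binding receptor, read 72.7, 70.7 and 72.4 CPM against 0.234, 0.359 and 0.37 CPM (-7.77 ± 0.11). In these 3 genes the spread within a group was small beside the gap between the groups. GZMM, a granule serine protease of lymphocytes, fell from 9.24, 10.2 and 10 CPM to 6 counts in 3 libraries, a ratio of 187 with a 95% counting interval of 85.6 to 511. The hair keratin genes KRT86 and KRT81 fell from 78.5, 80 and 77.6 CPM and from 94.6, 97.6 and 95.1 CPM to at most 0.848 CPM in any clone 2 library. They are close copies of each other, so the division of reads between the pair is uncertain.

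Several genes that every HMC-1.2 library expressed had no or almost no counts in clone 2. DNAJA4, a cochaperone of HSP70 on chromosome 15 (78264086-78282196), read 16.8, 17.1 and 16.3 CPM in HMC-1.2 and had 0 counts in all 3 clone 2 libraries, at least 216-fold lower when set against 3 counts per library. KLHL9, a substrate adaptor of the CUL3 ubiquitin ligase on chromosome 9 (21329665-21335404), fell from 30, 32.2 and 32 CPM to 2 counts over 3 libraries, a ratio of 1798 with an interval of 497 to 14854. The intervals and bounds given for such genes cover counting error only. CCDC120, on the X chromosome, fell at least 75.1-fold from 6.11, 5.48 and 5.86 CPM to 0 counts. OSR1, a zinc finger transcription factor of mesoderm, fell at least 27.7-fold from 2.4, 2.01 and 2.03 CPM to 0 counts. Of the zinc finger genes ZNF100 and ZNF542, a pseudogene, 2 counts each were left in clone 2, with ratios of 330 (90.8 to 2729) and 491 (136 to 4065). Each of these genes was above 2 CPM in every HMC-1.2 library, and no clone 2 library had more than 3 counts of any. In clone 1, DNAJA4, CCDC120, ZNF100 and ZNF542 were also near 0, at means of 0.0092, 0.0356, 0.0092 and 0.00947 CPM. In HMC-1.1 these genes were at 0, 0.018, 0.00871 and 0 CPM. KLHL9 and OSR1 kept 5.97 and 1.29 CPM in clone 1 and 5.95 and 0.924 CPM in HMC-1.1.

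**Figure D2:**
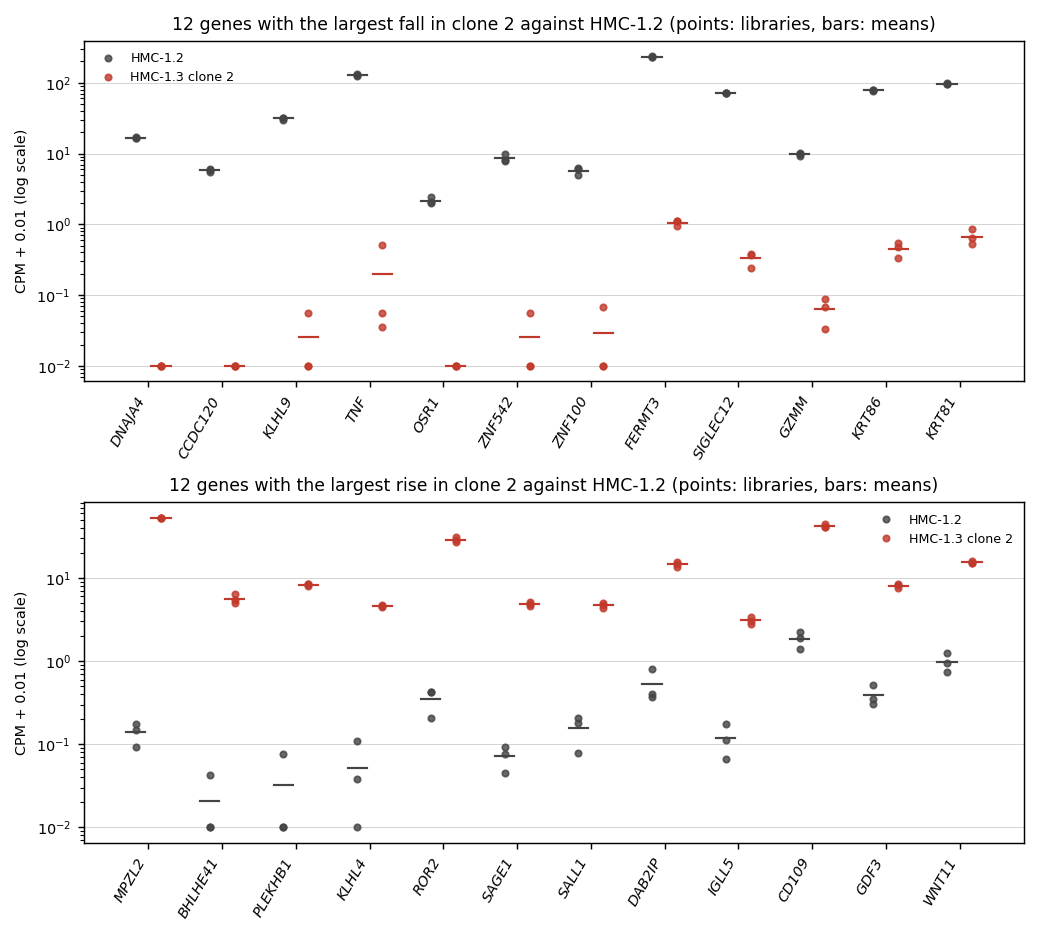
Level of the 12 genes with the largest fall (top) and the largest rise (bottom) in CPM + 0.01 on a log scale, by library, with bars at the group means. The genes were chosen so that the groups do not overlap, and points at 0.01 are libraries with 0 counts.

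The largest rises included receptors and ligands of developmental signalling. MPZL2, an adhesion molecule of the immunoglobulin superfamily, read 0.0838, 0.165 and 0.138 CPM in HMC-1.2 and 53.2, 52.5 and 52.4 CPM in clone 2 (8.67 ± 0.10, adjusted p = 1.1e-19). ROR2, a receptor tyrosine kinase that binds WNT5A, rose from 0.419, 0.198 and 0.414 CPM to 30.8, 28.7 and 27 CPM (6.36 ± 0.12, adjusted p = 9.9e-17). In both, every HMC-1.2 library was below 1 CPM. CD109, a membrane protein that binds TGF-beta, rose from 1.4, 2.21 and 1.9 CPM to 41.6, 44.7 and 41.2 CPM (4.55 ± 0.11). DAB2IP, a RAS GTPase-activating protein, rose from 0.391, 0.363 and 0.793 CPM to 14.6, 13.7 and 15.5 CPM (4.84 ± 0.15). WNT11, a secreted WNT ligand, and GDF3, a ligand of the TGF-beta superfamily, rose by 3.96 ± 0.14 and 4.37 ± 0.23 on the log2 scale, to 15, 15.3 and 15.8 CPM and to 8.48, 7.59 and 8.19 CPM. Among the 12 largest rises were also SALL1, a zinc finger transcription factor, which read 4.38, 4.72 and 5.06 CPM in clone 2, and IGLL5, which lies in the immunoglobulin lambda region beside constant genes that may share its reads. SALL1 rose by 4.97 ± 0.27 and IGLL5 by 4.82 ± 0.35.

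BHLHE41, a repressor of the circadian clock, had 1 count in HMC-1.2 and read 5, 5.44 and 6.34 CPM in clone 2, a ratio of 544 with an interval of 97.3 to 21523. PLEKHB1, a pleckstrin homology domain protein, had 2 counts against 8.51, 8.39 and 7.93 CPM, a ratio of 398 (110 to 3290). For KLHL4 and the cancer-testis gene SAGE1, both X-linked, the ratios were 111 (43.1 to 409) and 78.3 (35.7 to 214). The unnamed long non-coding RNA GS1-179L18.1 on chromosome 7 had 2 counts in HMC-1.2 and read 1.55, 2.05 and 1.57 CPM in clone 2, while neither clone 1 nor HMC-1.1 had a count. Together 25 genes at 1 CPM or more in HMC-1.2 had at most 3 counts in each clone 2 library, and 11 genes showed the opposite. Among 24 of the 25 genes, 13 also had at most 3 counts in each clone 1 library and 14 in each HMC-1.1 library, whereas for clone 1, and likewise for HMC-1.1, this held for 1 of the 11.

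Of 19 genes for KIT, its ligand and its adaptors, 18 were tested, 1 rose and 2 fell, a share near the 16.5% of all genes, with a median log2 fold change of -0.10. FES, a cytoplasmic tyrosine kinase that acts downstream of KIT, fell from 120, 122 and 112 CPM to 65.9, 64.4 and 64.9 CPM (-0.86 ± 0.04), and DOK2, an adaptor that restrains RAS, fell by 0.74 ± 0.05 on the log2 scale. GAB1, a docking protein for PI3 kinase, rose from 4.44, 3.27 and 3.97 CPM to 6.63, 6.75 and 6.01 CPM (0.72 ± 0.14), a call lost in limma on log2(FPKM + 0.1). Against clone 1 edgeR called 0 of the 18.

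The tryptase genes TPSG1 and TPSAB1 had the largest falls among granule genes. Of the 14 tested genes for granule proteases and amines, 2 rose and 5 fell, against 7.98% and 8.51% of all genes. The median was -0.14. TPSAB1, the alpha and beta tryptase gene, read 591, 582 and 552 CPM in HMC-1.2 and 28.5, 27.9 and 25.1 CPM in clone 2 (-4.41 ± 0.05, adjusted p = 3.5e-20). Every clone 2 library lay more than 10-fold below every HMC-1.2 library. TPSG1, the membrane-anchored tryptase, fell from 16.8, 15.9 and 17.7 CPM to 0.292, 0.436 and 0.393 CPM (-5.46 ± 0.17), and TPSB2 fell by 1.49 on the log2 scale, while TPSD1 was not called (0.16). TPSAB1, TPSB2 and TPSD1 are close copies of one another, so the share of each of these is uncertain. In FPKM, TPSAB1 went from 592 to 29.4 and TPSB2 from 96.6 to 35, so that the order of the pair was turned. SLC18A2, which loads histamine into granules, and NDST2, a heparin sulfotransferase, fell by 1.52 and 1.26. CPA3, the mast cell carboxypeptidase, rose from 4.89, 5.05 and 5.07 CPM to 17.3, 16.5 and 17.6 CPM (1.78 ± 0.08). GZMB, granzyme B, rose from 1.31, 1.65 and 1.52 CPM to 6.75, 7.82 and 5.18 CPM (2.14 ± 0.22), and it was the single member called between the clones.

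IgE receptor signalling moved in both directions. Of 19 members, all tested, 4 rose and 3 fell, against 7.98% and 8.51% of all genes, with a median of 0.01. LAT2, an adaptor of the IgE receptor pathway, fell from 20.2, 20 and 21.6 CPM to 0.555, 0.436 and 0.717 CPM (-5.16 ± 0.20). INPP5D, the phosphatase SHIP1 that opposes PI3 kinase, fell from 542, 521 and 522 CPM to 120, 124 and 121 CPM (-2.12 ± 0.03). MS4A2, the beta chain of the receptor, was under 1 CPM in all libraries and fell by 2.07 ± 0.41. FCER1G, its gamma chain, rose from 0.893, 0.462 and 0.414 CPM to 3.45, 3.72 and 3.54 CPM (2.55 ± 0.17), and the tyrosine kinases BTK and SYK and the phospholipase PLCG2 rose by 1.25, 0.71 and 0.62. FCER1G differed most between the clones in this list, since clone 1 read 33.7, 32.5 and 33.2 CPM (clone 2 minus clone 1, -3.21 ± 0.08, adjusted p = 2.2e-14).

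ALOX5AP and LTC4S, of leukotriene synthesis, fell, while LTA4H, leukotriene A4 hydrolase, was not called (0.11). Of 11 tested eicosanoid genes, 2 rose and 3 fell, against 7.98% and 8.51% of all genes, and the median was 0.14. ALOX5AP, the 5-lipoxygenase activating protein, fell from 111, 110 and 99.3 CPM to 9.44, 9.75 and 8.56 CPM (-3.53 ± 0.06), and LTC4S, leukotriene C4 synthase, from 6, 5.51 and 5.62 CPM to 0.205, 0.41 and 0.208 CPM (-4.36 ± 0.24). HPGDS, the prostaglandin D2 synthase of mast cells, fell by 1.24 ± 0.15 on the log2 scale. All 3 were also lower in clone 2 than in clone 1. The phospholipase PLA2G4A rose by 1.02 and the leukotriene receptor gene CYSLTR2, under 1 CPM throughout, by 1.63 ± 0.42.

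Among immunoglobulin-like receptors, many of which carry inhibitory motifs, 10 of 22 were tested, 6 fell (8.51% of all genes did) and 0 rose, with a median of -1.37. LAIR1, a collagen receptor, fell from 124, 125 and 119 CPM to 3.68, 3.44 and 3.45 CPM (-5.12 ± 0.06, adjusted p = 1.9e-19), and PILRA from 15.6, 15.6 and 14.6 CPM to 0.848, 0.667 and 0.925 CPM (-4.22 ± 0.14). FCGR2B, the inhibitory IgG receptor, read 23.4, 20.2 and 22.9 CPM against 5.9, 5.59 and 4.58 CPM (-2.06 ± 0.09). LAIR1 and FCGR2B were lower in clone 2 than in clone 1 as well, by 1.71 and 1.12 on the log2 scale. The remaining falls were of CD200R1, a receptor for CD200, by 2.04 ± 0.43 at under 1 CPM, of SIRPA, the receptor of CD47, by 1.90, and of MILR1, an inhibitory receptor of mast cells, by 0.84.

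**Figure D3:**
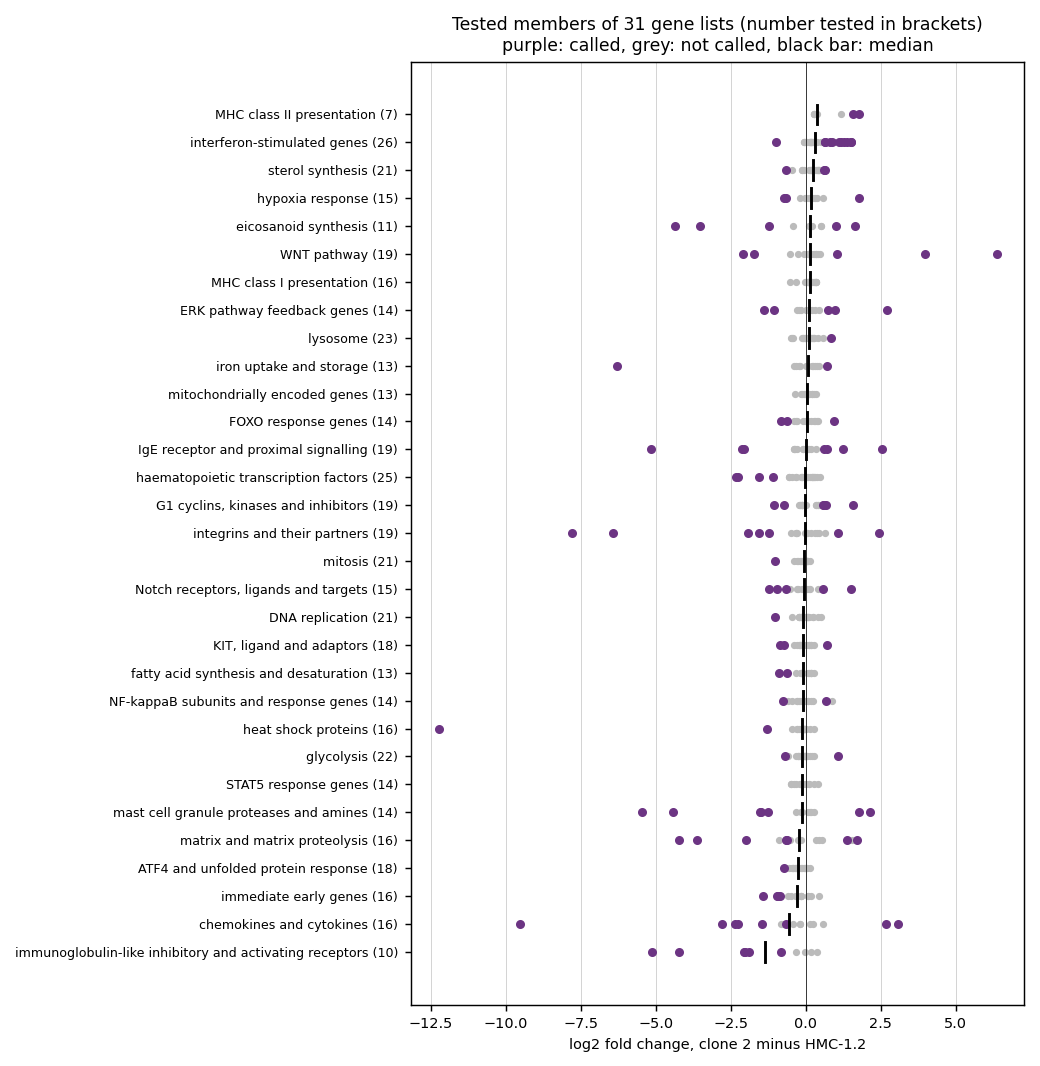
Log2 fold change (clone 2 minus HMC-1.2) of each tested and reported member of 31 gene lists, with the number tested in brackets, called members in purple, others in grey and the median as a black bar. Single members such as DNAJA4, TNF and FERMT3 lie far from their lists, while most medians lie between -0.3 and 0.3.

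Targets of the pathways below KIT showed small changes apart from a few genes. Of 14 tested ERK feedback genes, 3 rose and 2 fell (median 0.12), against 7.98% and 8.51% of all genes. DUSP4, a nuclear phosphatase of ERK, rose from 107, 108 and 111 CPM to 713, 717 and 710 CPM (2.72 ± 0.03, adjusted p = 6.5e-20), and clone 1, at 729, 696 and 720 CPM, did not differ from clone 2 by the test (-0.00 ± 0.03, adjusted p = 0.95). PHLDA1 rose by 0.99 ± 0.08, and SPRED3, an ERK inhibitor gene, by 0.74, a call lost without either of 2 libraries. CCND1, cyclin D1, fell from 38.1, 37.4 and 40.2 CPM to 15.9, 18.6 and 20.5 CPM (-1.07 ± 0.08), above the 5.11, 4.75 and 4.23 CPM of clone 1. The ERK inhibitor gene SPRY4 was under 1 CPM, fell by 1.38 ± 0.49 (adjusted p = 0.027), and lost its call in DESeq2 and without any of 4 libraries. Of 16 immediate early genes, the fast targets of growth factor signals, 4 fell and 0 rose (median -0.30), against 8.51% and 7.98% of all genes. FOS read 36.5, 43.2 and 42 CPM against 22.2, 21.4 and 22.8 CPM (-0.87 ± 0.07), and FOSB, EGR3 and KLF4 fell by 0.94 ± 0.17, 1.41 ± 0.20 and 0.95 ± 0.24. FOS and FOSB were nevertheless higher in clone 2 than in clone 1, by 0.80 ± 0.08 and 0.67 ± 0.18.

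The STAT5 list holds response genes and the factors STAT5A, STAT5B and STAT3. Of its 14 genes edgeR's quasi-likelihood test called 0 (median -0.13), with 12 at an unadjusted p under 0.05 and 0 called by DESeq2 or by limma on log2(FPKM + 1). In edgeR 10 of the 14 had an adjusted p under 0.05, as did 7739 of all 15944 genes, but were under the fold limit. Under the fold limit, STAT5A and PIM3 fell by 0.50 ± 0.03 and 0.48 ± 0.04, while SOCS3 and PIM2 rose by 0.40 ± 0.10 and 0.29 ± 0.05. PIM1, a kinase induced by STAT5, read 769, 744 and 745 CPM against 693, 688 and 667 CPM (-0.14 ± 0.03), and CCND3, cyclin D3, 402, 421 and 404 CPM against 409, 421 and 398 CPM (0.00 ± 0.04), with overlapping libraries. Of 14 tested FOXO response genes 1 rose and 2 fell (median 0.04), against 7.98% and 8.51% of all genes. SESN3, a sestrin that restrains mTORC1, rose by 0.95 ± 0.10 on the log2 scale, and PIK3IP1, an inhibitor of PI3 kinase, fell by 0.84 ± 0.17. TXNIP, an inhibitor of glucose uptake, fell from 152, 156 and 148 CPM to 98.9, 97.6 and 99 CPM (-0.63 ± 0.04), whereas clone 1 read 313, 299 and 304 CPM. Of 14 genes of the NF-kappaB list TRAF1, an adaptor of TNF receptors, fell by 0.76 ± 0.14 and BIRC3, an inhibitor of apoptosis, rose by 0.67 ± 0.25 (list median -0.10). The call of BIRC3 was lost in DESeq2 and without any of 3 libraries.

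Of 30 chemokine and cytokine genes 16 were tested, 2 rose and 6 fell, against 7.98% and 8.51% of all genes, with a median of -0.55. Beside TNF, the macrophage growth factor CSF1 fell from 169, 169 and 167 CPM to 24.3, 25.2 and 23.6 CPM (-2.79 ± 0.04). The chemokine genes CCL1 and CCL2 fell by 2.36 and 1.47, the growth factor VEGFA by 0.67 ± 0.04, and IL4, under 1 CPM, by 2.26. The rises were of CXCL10, an interferon-induced chemokine, from at most 0.172 CPM in HMC-1.2 to 0.351, 0.667 and 0.832 CPM (2.68 ± 0.60), and of AREG, a ligand of the EGF receptor, from 5 counts to 0.701, 0.282 and 0.439 CPM, a ratio of 8.94 (3.61 to 28.7). In this list 6 members were higher and 2 lower in clone 2 than in clone 1, beside 677 and 1336 of 15944 genes. The list median of clone 1 against HMC-1.2 was -1.25.

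Of 26 interferon-stimulated genes, all tested, 10 rose (7.98% of all genes did) and 1 fell, and the median was 0.31 against 0.00 over all genes. IFIT2, which binds foreign RNA, rose from 11.6, 11.8 and 10.7 CPM to 33.1, 31.3 and 32.8 CPM (1.51 ± 0.06, adjusted p = 8e-13). USP18, which removes ISG15 from proteins, rose from 47.7, 49 and 46.4 CPM to 125, 123 and 119 CPM (1.36 ± 0.04). IFI44 read 1.48, 1.25 and 1.52 CPM against 4.21, 4.39 and 3.63 CPM (1.52 ± 0.16), and OAS2, an RNA sensor that activates RNase L, 1.95, 1.68 and 2.1 CPM against 4.73, 4.28 and 4.86 CPM (1.27 ± 0.14). IRF7, a transcription factor of the interferon response, was the member that fell, by 0.99 on the log2 scale. Of the 26 genes, 8 were higher in clone 2 than in clone 1 and 0 were lower, beside 677 and 1336 of 15944 genes. IFI44 and OAS2 were called lower in clone 1 than in HMC-1.2, by 0.62 and 0.78, and IFIT2 did not differ between the clones by the test (0.03 ± 0.05).

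Of 16 genes for MHC class I presentation edgeR called 0 (median 0.13), with 11 at an unadjusted p under 0.05 and 0 called by DESeq2 or limma. In edgeR all 11 also had an adjusted p under 0.05, as did 7739 of all 15944 genes, but were under the fold limit. B2M, the light chain of class I molecules, read 884, 882 and 858 CPM against 1059, 1017 and 950 CPM (0.21 ± 0.04), and HLA-E 739, 725 and 708 CPM against 516, 514 and 489 CPM (-0.52 ± 0.03). Of 7 tested class II genes 2 rose and 0 fell (median 0.38), against 7.98% and 8.51% of all genes. HLA-DPB1 rose from 5.5, 4.89 and 6.03 CPM to 16, 16.3 and 17.1 CPM (1.59 ± 0.07), and HLA-DRA from 0.251, 0.33 and 0.276 CPM to 0.965, 1.05 and 0.902 CPM (1.76 ± 0.43). Against clone 1 the former was lower, at -0.60 ± 0.06, and the latter higher, at 3.67 ± 0.53. The level of polymorphic HLA genes also depends on how reads of other alleles are aligned.

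The LFA-1 genes ITGAL and ITGB2 fell, as did FERMT3. Of 19 tested integrin genes and partners, 2 rose and 5 fell, against 7.98% and 8.51% of all genes, with a median of -0.04. ITGAL, the alpha chain of LFA-1, read 412, 402 and 406 CPM in HMC-1.2 and 4.35, 4.95 and 4.88 CPM in clone 2 (-6.42 ± 0.05, adjusted p = 1.5e-21). Its partner ITGB2 was at 1.51, 1.06 and 1.66 CPM and fell to 0.292, 0.385 and 0.416 CPM (-1.93 ± 0.29), so that ITGAL exceeded it in both groups in FPKM, at 125 against 0.723 in HMC-1.2 and 1.52 against 0.407 in clone 2. ITGA9 and ITGA4, alpha chains of beta 1 integrins, fell by 1.57 and 1.21, the first of which was not called by limma on log2(FPKM + 0.1) (-0.70, adjusted p = 0.20). ITGB5 and ITGB3, beta chains of vitronectin receptors, rose by 1.08 and 2.43 ± 0.78, but ITGB3 was under 1 CPM and lost its call without 1 HMC-1.2 library, the first.

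Of 16 tested genes for matrix and its proteolysis 3 rose and 5 fell (median -0.21), against 7.98% and 8.51% of all genes. PLAU, urokinase, fell from 18, 18.9 and 17.5 CPM to 0.877, 0.872 and 1.13 CPM (-4.22 ± 0.15), and MMP25, a membrane-anchored metalloprotease, from 3.35, 4.89 and 4.55 CPM to 0.234, 0.436 and 0.347 CPM (-3.62 ± 0.24). VIM, the intermediate filament vimentin, fell from 415, 393 and 404 CPM to 97.6, 99.5 and 107 CPM (-1.99 ± 0.04) and stood above the 43, 41.8 and 42.9 CPM of clone 1. COL6A1 and FN1, matrix components, fell by 0.67 and 0.62, the latter below the fold limit without either of 2 libraries. TIMP3, an inhibitor of metalloproteases, rose by 1.37. THBS1, thrombospondin, read 3.85, 3.57 and 3.86 CPM against 6.93, 8.49 and 20.9 CPM (1.70 ± 0.30), with the third clone 2 library far above the others.

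That library, clone 2 replicate 3, stood apart in a small set of genes, chosen here after their values were seen. In 8 of the genes reported here it read at least 1 CPM and more than 4-fold above the 2 other clone 2 libraries after 0.1 CPM was added to those, while the same rule found 0 to 4 genes in each of the other 11 libraries. KRT8, a keratin of simple epithelia, read 10.6 CPM in it and 0.0877 and 0.0769 CPM in the others. CAV1, the coat protein of caveolae, read 6.78 CPM against 0.789 and 0.846 CPM, PTRF, a further caveolar coat protein, 6.75 CPM against 0.146 and 0.462 CPM, and FLNC, a muscle filamin, 4.56 CPM against 0.205 and 0.103 CPM. The set also held L1CAM (2.57 CPM) and ALCAM (2.47 CPM), both cell adhesion molecules, SFRP1 (1.73 CPM), an inhibitor of WNT signals, and COL5A2 (1.57 CPM), a fibrillar collagen. KRT8 is also one of the epithelial markers above. The part of other cells in these values was not tested.

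Leaving that library out changed these genes in both directions. The rises of CAV1, KRT8, PTRF and FLNC were no longer called, at log2 fold changes of 0.60, -1.71, -0.40 and 0.38. The fall of SFRP1, which is -1.84 with all libraries, became -5.32 (adjusted p = 2.1e-07), and ALCAM and L1CAM, which were not called at -0.30 and -0.62, were called at -5.14 (adjusted p = 4.8e-05) and -3.72 (adjusted p = 5.8e-06). COL5A2 went from 0.43 to -0.96 (adjusted p = 0.06) and was called in neither case. THBS1 kept its call at 1.04. Over all genes 2596 were called without this library, against 2630.

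Lipid and energy genes changed little against HMC-1.2. Of 21 sterol synthesis genes 2 rose and 1 fell, against 7.98% and 8.51% of all genes, with a median of 0.23. HMGCS1, which makes HMG-CoA, rose from 285, 295 and 295 CPM to 468, 450 and 458 CPM (0.65 ± 0.03), CYP51A1, lanosterol demethylase, rose by 0.62 ± 0.04, and INSIG1, a brake on sterol synthesis, fell from 1006, 971 and 992 CPM to 629, 642 and 623 CPM (-0.65 ± 0.04). Against clone 1, where 677 of 15944 genes were higher and 1336 lower in clone 2, 15 of the 21 were higher and 0 lower. Clone 1 itself lay below HMC-1.2 in this list, with a median of -0.53. HMGCS1 read 154, 154 and 157 CPM in clone 1 (clone 2 minus clone 1, 1.56 ± 0.03, adjusted p = 3.4e-16). Of 13 tested fatty acid synthesis genes 0 rose and 2 fell (median -0.10), FADS2, a desaturase, from 1295, 1295 and 1265 CPM to 681, 717 and 677 CPM (-0.89 ± 0.03) and the regulator SREBF1 by 0.61 ± 0.04, close to the fold limit, under which it came without either of 2 libraries.

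Of 22 glycolysis genes 1 rose and 1 fell (median -0.11), against 7.98% and 8.51% of all genes. PFKM, muscle phosphofructokinase, rose from 42.5, 41.6 and 40.5 CPM to 85.5, 86.1 and 87.5 CPM (1.06 ± 0.04), level with the 86.6, 88.6 and 86.8 CPM of clone 1, and SLC16A3, a lactate exporter, fell by 0.69 ± 0.03. Of 15 tested hypoxia response genes 1 rose and 2 fell (median 0.18). EGLN1, the oxygen sensor of the HIF pathway, rose from 7.04, 5.71 and 6.76 CPM to 21.3, 21.7 and 23.8 CPM (1.77 ± 0.08), and NDRG1 fell by 0.74 ± 0.07 and VEGFA by 0.67 ± 0.04. Iron genes held a fall of SLC40A1, ferroportin, the iron exporter, from 4.36, 5.45 and 5.28 CPM to 0.117, 0.0513 and 0.0231 CPM (-6.30 ± 0.38), and a rise of the mitochondrial iron importer SLC25A37 by 0.71 ± 0.03, among 13 tested (median 0.08). Of 23 tested lysosomal genes only CTSS, cathepsin S, was called, from 163, 154 and 150 CPM to 285, 282 and 272 CPM (0.85 ± 0.04, list median 0.11), while CD63 and CTSD differed by 0.14 ± 0.04 and -0.12 ± 0.04. Of the 13 mitochondrially encoded genes edgeR called 0 (median 0.04), with 5 at an unadjusted p under 0.05 and 0 called by DESeq2 or limma. In edgeR the 5 also had an adjusted p under 0.05, as did 7739 of all 15944 genes, but were under the fold limit. MT-CO1 and MT-CO3 differed by 0.21 ± 0.07 and 0.22 ± 0.09.

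Of 18 tested genes of the ATF4 and unfolded protein response, 0 rose and 1 fell (median -0.25), which was ATF5, a transcription factor of amino acid stress, at 136, 147 and 135 CPM against 85.4, 83.6 and 86.1 CPM (-0.71 ± 0.04). Against clone 1, 3 members were higher and 10 lower in clone 2, beside 677 and 1336 of 15944 genes. Among the 10 lower were TRIB3 (-2.04), DDIT3 (-1.66) and SLC7A11 (-1.18). Among the 3 higher were the chaperones of the endoplasmic reticulum HSPA5, at 724, 736 and 701 CPM against 402, 411 and 390 CPM in clone 1 (0.85 ± 0.03), and HSP90B1 (0.76 ± 0.03). The list median of clone 1 against HMC-1.2 was 0.31. Of 16 heat shock genes 0 rose and 2 fell (median -0.11), DNAJA4 as given above and HSPA6, a stress-induced HSP70, which was 2.46-fold lower. Against clone 1, 9 of the 16 were higher in clone 2 and 0 lower, beside 677 and 1336 of 15944 genes. Clone 1 itself lay below HMC-1.2 in this list, with a median of -0.88.

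Genes of the cell cycle were mostly near their levels in HMC-1.2. Of 21 DNA replication genes and of 21 mitosis genes 1 each fell and 0 rose, with medians of -0.09 and -0.05. TYMS, thymidylate synthase on the short arm of chromosome 18, fell from 365, 355 and 336 CPM to 178, 171 and 171 CPM (-1.02 ± 0.03, adjusted p = 8.3e-14). The median of all genes tested on that arm was -1.06, as given below. CDK1, the mitotic kinase on chromosome 10, fell from 197, 190 and 190 CPM to 98.9, 90.3 and 94.1 CPM (-1.02 ± 0.03, adjusted p = 1.1e-13). Both were lower than in clone 1 too, by 0.80 and 0.78 on the log2 scale. Other proliferation genes were not called, with MCM7, a helicase subunit, at -0.12 ± 0.03, PCNA, the sliding clamp, at 0.42 ± 0.04, TOP2A, a topoisomerase, at -0.30 ± 0.04 and MKI67, the proliferation marker, at -0.18 ± 0.10 with overlapping libraries. Of 19 G1 genes 4 rose and 2 fell (median -0.04), against 7.98% and 8.51% of all genes. CDK6, a kinase of the G1 phase, rose from 8.29, 8.95 and 10.9 CPM to 26, 28.1 and 29.9 CPM (1.59 ± 0.10), CDKN2C, CDK4 and CDKN2A rose by 0.68 ± 0.06, 0.61 and 0.59, CDKN2A falling under the fold limit without any of 4 libraries, and CCND1 and the inhibitor CDKN2D fell by 1.07 ± 0.08 and 0.74 ± 0.09.

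Of 25 tested haematopoietic transcription factors 0 rose and 4 fell (median -0.03), against 7.98% and 8.51% of all genes. The share called in either direction was near the 16.5% of all genes. CEBPA, a factor of myeloid differentiation, read 72.6, 73.1 and 67.5 CPM against 14.7, 14.9 and 15.1 CPM (-2.25 ± 0.05), and MYB, a factor of progenitor cells, 357, 350 and 359 CPM against 172, 163 and 163 CPM, 2.14-fold lower. CEBPE, of granulocyte maturation, fell from 1.42, 1.16 and 0.897 CPM to at most 0.254 CPM (-2.31 ± 0.47). RUNX2 was under 1 CPM with overlapping libraries (-1.56 ± 0.60, adjusted p = 0.042), and its call was lost in DESeq2 and without any of 4 libraries. Of 15 tested Notch genes 2 rose and 3 fell (median -0.07), against 7.98% and 8.51% of all genes. The receptor gene NOTCH1 fell from 157, 154 and 172 CPM to 62.9, 70.7 and 73 CPM (-1.22 ± 0.06), NOTCH4 by 0.97 ± 0.16 and the ligand gene JAG2 by 0.67 ± 0.08, while NOTCH2 rose by 0.59, a call lost without any of 4 libraries. The coactivator gene MAML2, under 1 CPM, rose 2.83-fold, a call lost without any of 3 libraries. Of 19 tested WNT genes 3 rose and 2 fell (median 0.13), against 7.98% and 8.51% of all genes. Beside ROR2 and WNT11, the receptor gene FZD4 rose by 1.03, and the ligand WNT5A fell from 2.32, 1.91 and 2.52 CPM to 0.468, 0.436 and 0.647 CPM (-2.10 ± 0.30). The change of WNT5A in FPKM was smaller, from 0.457 to 0.267, and was not called by limma on log2(FPKM + 0.1) (-0.71, adjusted p = 0.23). AXIN2, a feedback target of beta-catenin, fell by 1.71 ± 0.40.

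Chromosome 18 differed from all others. Of its 230 tested genes 76 were higher and 66 lower in clone 2, so 61.7% were called, against 12.1% to 23.2% on the 21 other autosomes and on X. Its median was 0.46, whereas the medians of the other chromosomes lay between -0.06 and 0.09. The median hides a split along the chromosome. Between the end of one tested gene at position 14543600 and the start of the next at 20944612 lies the widest gap, at the centromere. Of the 73 genes before it, on the short arm, 57 were lower and 3 higher, and the median was -1.06 (quartiles -1.34 and -0.86), a ratio of 0.479. Of the 157 genes after it, on the long arm, 73 were higher and 9 lower, and the median was 0.59 (quartiles 0.41 and 0.81), a ratio of 1.51.

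The shift ran along both arms. In consecutive windows of 10 genes at 5 CPM or more, the 3 windows that lie wholly on the short arm had medians of -1.05, -1.03 and -1.14, and the window that spans the gap -0.96. All 11 windows of the long arm had medians between 0.41 and 0.92. The same windows in clone 1 had medians of -0.13 to 0.42 against HMC-1.2. On the short arm 55 of 73 genes were called lower in clone 2 than in clone 1 and 0 higher, with a median difference of -0.97. On the long arm 60 of 157 were called higher and 7 lower, with a median difference of 0.55. DNA was not measured in these samples, and the number of copies of the chromosome was not tested. Genes of this chromosome made up 142 of the 2630 genes called.

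**Figure D4:**
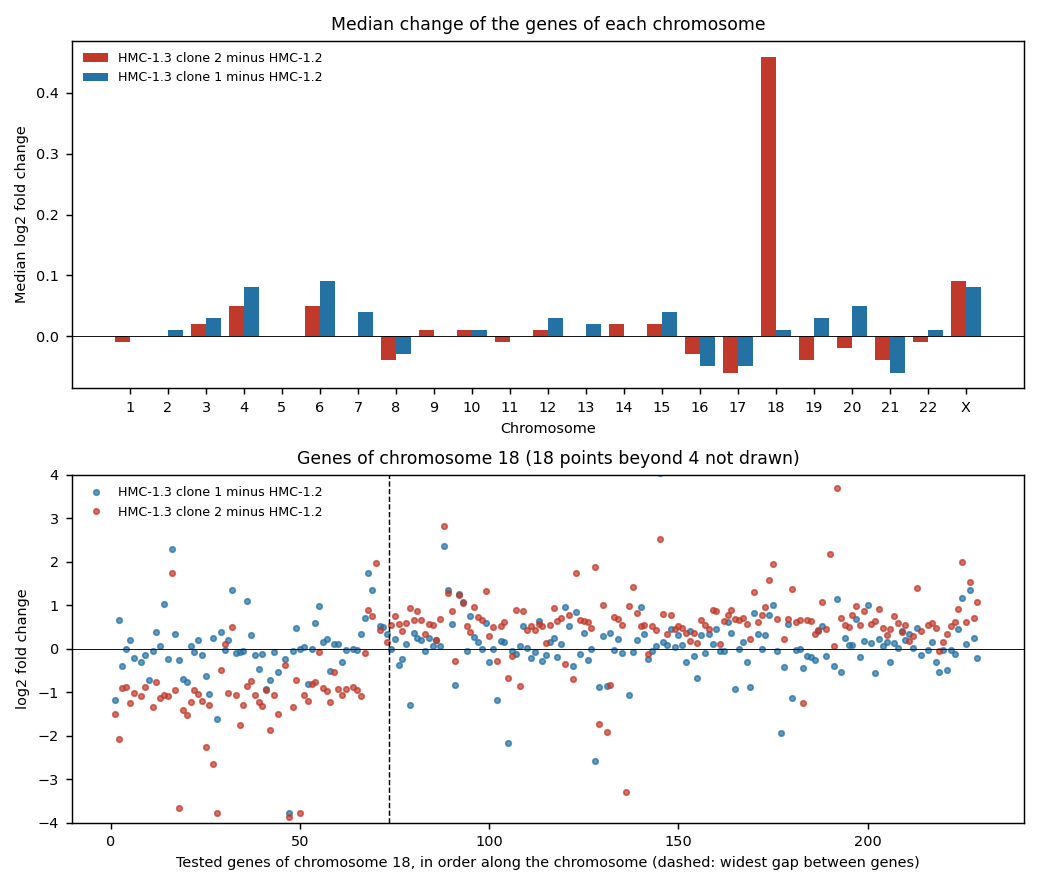
Top, median log2 fold change against HMC-1.2 for the tested genes of each chromosome in clone 2 (red) and clone 1 (blue). Bottom, the 230 tested genes of chromosome 18 in order along it, where clone 2 lies near -1 before the dashed line at the widest gap and near 0.6 after it and clone 1 scatters around 0; 18 points beyond 4 in either direction are not drawn.

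A few genes of chromosome 18 went far beyond the shift of their arm. LDLRAD4, an inhibitor of TGF-beta signals on the short arm (13217498-13652755), fell from 18.8, 18.1 and 19.6 CPM to 0.0585, 0.205 and 0.231 CPM (-6.75 ± 0.22, adjusted p = 9.1e-14), and was also low in clone 1, at 0.276, 0.641 and 0.398 CPM. RAX, a homeobox gene on the long arm, fell from 0.949, 1.35 and 1.55 CPM to 1 count, a ratio of 145 (25.5 to 5770), against the direction of that arm. The pseudogene CTD-2594A10.4, beside the gap, had 0 counts in clone 2, at least 6.71-fold lower, and read 0.607, 0.801 and 0.824 CPM in clone 1. The long non-coding RNA AC139100.3, near the end of the long arm, had no count outside HMC-1.2, and was in clone 2 at least 23.6-fold lower than the 1.65, 2.11 and 1.72 CPM of HMC-1.2. The long non-coding RNA RP11-169F17.1 on the long arm rose from 0.279, 0.066 and 0.138 CPM to 15.7, 17.9 and 16.8 CPM (6.62 ± 0.21, adjusted p = 5.7e-14), while clone 1 read 0.414, 0.24 and 0.369 CPM.

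Outside chromosome 18, the stretches with a shift in clone 2 had values close to it in the other 2 groups, with HMC-1.2 as the shared reference of all. These stretches of 10 Mb were compared after the data had been seen. On chromosome 5, 64 genes from 170246233 to 180072113 had medians of -0.74 in clone 2, of -0.79 in clone 1 and, in HMC-1.1, of -0.86, and the 10 genes from there to 181261150 medians of -1.05, -0.98 and -0.97. On chromosome 12, 28 genes from 62260338 to 69823204 had medians of 0.60, 0.44 and 0.56. Of 280 such stretches with at least 10 genes 14 had a median beyond 0.3 in size in clone 2, and 7 of the 14 were on chromosome 18.

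Clone 2 and clone 1, which share the genotype at both KIT codons by design, differed in 2013 genes (12.6%), of which 677 were higher and 1336 lower in clone 2. Among genes with a name, a mean of at least 1 CPM and no overlap of libraries, 153 rose and 286 fell against both HMC-1.2 and clone 1. The 6 largest of the falls were in genes that still read above 1 CPM in every clone 1 library, although all of them but CXCR2 were called lower in clone 1 than in HMC-1.2 as well. OSR1 was at 1.32, 1.26 and 1.28 CPM in clone 1 and at 0 counts in clone 2. KLHL9 read 5.27, 5.64 and 7.02 CPM in clone 1 (-8.18 ± 0.31, adjusted p = 2.1e-12), and ADCYAP1, a neuropeptide gene of the short arm of chromosome 18, read 3.71, 3.14 and 3.93 CPM in HMC-1.2, 2.29, 2.14 and 2.1 CPM in clone 1 and at most 0.0462 CPM in clone 2. CXCR2, a receptor of interleukin 8, read 3.57, 4.49 and 4.14 CPM in HMC-1.2, 2.35, 3.18 and 3.01 CPM in clone 1 and 0.234, 0.103 and 0.231 CPM in clone 2 (clone 2 minus clone 1, -3.89 ± 0.26). KRT86 and KRT81 read 7.56 to 8.64 CPM and 9.22 to 10.7 CPM in clone 1. In each of these 6 genes HMC-1.1 was nearer to clone 1 than to clone 2.

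Among the named genes of that rule, those that exceeded clone 1 the most read under 10 CPM in clone 2. KLHL4 read 4.56, 4.75 and 4.51 CPM in clone 2 and 0.524, 0.294 and 0.625 CPM in clone 1 (3.26 ± 0.29). MMP16, a membrane metalloprotease, read 1.84, 2.39 and 1.83 CPM in clone 2 and 0.166, 0.214 and 0.341 CPM in clone 1 (3.06 ± 0.35), and GZMB 0.773, 0.668 and 0.795 CPM in clone 1 (3.14 ± 0.23). SYT4, a synaptotagmin on the long arm of chromosome 18, read 0.503, 0.759 and 0.448 CPM in HMC-1.2, 2.13, 1.98 and 2.22 CPM in clone 2 and 0.11, 0.0534 and 0.114 CPM in clone 1 (4.47 ± 0.33). MCC, a regulator of WNT signals, read 2.1, 2.82 and 2.5 CPM in clone 2 and 0.166, 0.107 and 0.312 CPM in clone 1 (3.66 ± 0.32). CAV1 also met the rule for these genes (4.77 ± 0.84), by its value in clone 2 replicate 3.

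The clones moved in opposite directions from HMC-1.2, each with a call, in 36 genes, 17 higher and 19 lower in clone 2. Among the 17 were GZMB, MCC, SYT4 and VCX3A, an X-linked gene with close copies (2.82 ± 0.43 between the clones). INHBE, the inhibin beta E subunit and a target of the ATF4 response, read 39.4, 40.5 and 35.9 CPM in HMC-1.2, 21.5, 19.3 and 21.6 CPM in clone 2 and 94.5, 93.1 and 92.4 CPM in clone 1 (clone 2 minus clone 1, -2.17 ± 0.06, adjusted p = 3.7e-14). SCN4A, a sodium channel of muscle, read 2.29, 2.84 and 2.14 CPM, then 0.818, 0.282 and 0.185 CPM in clone 2 and 4.75, 4.81 and 4.66 CPM in clone 1. TGFB1I1, a focal adhesion protein, read 5.33, 3.43 and 3.9 CPM, then 0.935, 1.54 and 1.23 CPM and 8.75, 8.07 and 9.01 CPM, and PCED1B differed by -2.15 ± 0.19 between the clones.

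**Figure D5:**
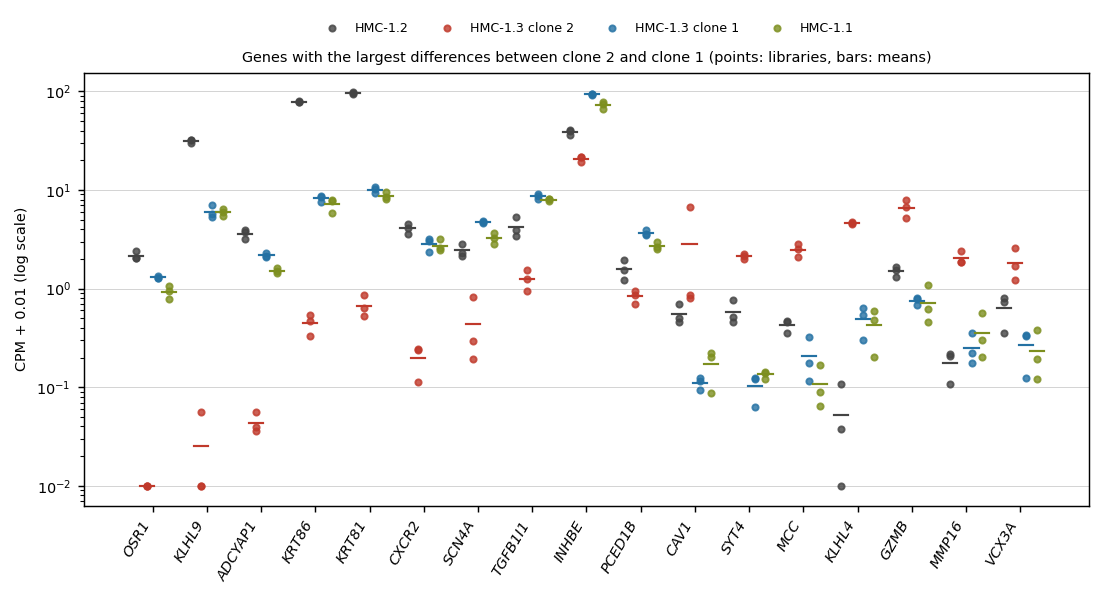
Level in CPM + 0.01 on a log scale, by library with bars at the means, of the genes named for the largest differences between clone 2 and clone 1. Clone 2 lies below the other groups in the left genes and above them in the right genes, where CAV1 rests on a single library, and clone 1 and HMC-1.1 lie close to each other.

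Against HMC-1.1, which carries V560G-KIT in place of D816V-KIT, clone 2 differed in 1306 genes (8.19%), 485 higher and 821 lower in clone 2. Of the 24 named genes with the largest rises and falls against HMC-1.2, 17 were also called between clone 2 and HMC-1.1. Other genes above were not called in that comparison, among them TPSAB1, which read 33.7, 34.3 and 34.9 CPM in HMC-1.1, ITGAL 4.48, 4.7 and 4.16 CPM, CSF1 25.4, 23.7 and 24.3 CPM and DUSP4 741, 729 and 710 CPM. MPZL2 read 75.5, 74.5 and 76.1 CPM in HMC-1.1 and was not called, while ROR2, at 16.3, 15.9 and 16.6 CPM, was called higher in clone 2 (0.82 ± 0.07). All of these comparisons with HMC-1.2 share its 3 libraries. Along the first principal component of log2 CPM over the genes tested, HMC-1.2 libraries lay at 65.4 to 66.5. Those of clone 2 lay at -15.2 to -14.3, of clone 1 at -26.8 to -25.7 and of HMC-1.1 at -25.6 to -24.2.

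The fold limit separates neighbours by little. SOGA1 (0.58 ± 0.08) and DHRS12 (-0.58 ± 0.22) were the called genes nearest to it, and HELZ2 (-0.58 ± 0.05) and KCNC4 (-0.58 ± 0.12) the nearest at an adjusted p under 0.05 that were not called.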

How the data were processed

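RNA of 12 libraries, 3 from each of 4 cell lines, was sequenced with an mRNA kit that keeps strand. The submitters' processing notes name cutadapt 2.10, STAR 2.5.3, RSEM 1.3.0, Picard and DESeq2. The authors marked duplicates and deposited expected counts per gene from RSEM and, in a second table, FPKM, and both were used. No column of another sample was present. Of the expected counts 7.39% were not whole, and all were rounded before testing. Totals were 29225900 to 43181402 per library in the groups of the main comparison. RSEM divides reads among genes that share them, so close copies are uncertain. Positions came from Gencode 44 on hg38, to which 98.9% of the identifiers were matched, while the methods name Gencode 39.

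Genes were filtered with filterByExpr, libraries scaled by TMM, and 15944 genes tested with edgeR 4.0.16 (quasi-likelihood test, 4 groups in 1 fit, R 4.3.3), with Benjamini-Hochberg adjustment over all of them. The contrasts were clone 2 against HMC-1.2, clone 1 and HMC-1.1. Errors of log2 fold changes are SE. On simulated data for the main contrast 200 of 200 changed genes were recovered with 4 false calls among 15677 genes. The simulated shifts all lay above the 1.5-fold limit and left out the least expressed genes. Recovery near that limit or at low counts was therefore not tested. Genes with at most 3 counts in each library of a group were given as a ratio with an exact 95% counting interval, or, at 0 counts, as a bound against 3 counts per library. Counts of libraries of a group differed by more than sampling noise, so none merely repeated the reads of another. This check cannot speak to separate preparations of the same RNA.

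The members and lists were chosen with earlier results of these data known. Named were the 12 largest rises and falls with a mean of at least 1 CPM, a gene name and no overlap of libraries, up to 4 called members of each of 31 lists or, where fewer than 2 were called, the 2 most expressed, the 6 and 4 largest differences between the clones in each direction for genes that moved alike and oppositely, the 5 most expressed undetected genes in each direction, KIT, 5 genes of chromosome 18 and 4 genes nearest the fold limit. After the counts were seen, all called members of a list with at most 6 of them in a direction and the genes high in 1 library were added. In all, 2 genes that these rules named are not reported here. Alternatives were DESeq2 1.42.0, limma 3.58.1 on log2 FPKM with pseudocounts of 1 and 0.1, other scalings and filters, a test against the fold limit, a term for 3 libraries that the column names call resent, a replicate block, only the groups compared, and leaving out each library.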

Additional observations from a re-analysis of the deposited data

Results flagged for a closer look

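Results are given here where the effect of the same contrast with HMC-1.2 differed between clone 2 and clone 1, tested as the contrast between the clones in edgeR's quasi-likelihood test. Of 169 named genes this held for 83, and the values are log2 differences, clone 2 minus clone 1. Part of the named genes were chosen for this difference or for high values in a single clone 2 library. The count is therefore not a share to set beside the 12.6% of all genes. Among the genes with the largest rises against HMC-1.2, the difference was 1.73 for WNT11, 1.47 for GDF3, 0.71 for CD109, 0.86 for IGLL5, 2.10 for SALL1, 1.52 for SAGE1, 0.80 for ROR2, 3.26 for KLHL4, -0.74 for PLEKHB1 and 2.00 for BHLHE41. Among the genes with the largest falls, the difference was -8.18 for KLHL9, -2.78 for TNF, -8.54 for OSR1, -2.25 for FERMT3, -1.07 for SIGLEC12, -1.77 for GZMM, -4.19 for KRT86 and -3.94 for KRT81. Among the genes chosen for their difference between the clones, the difference was 3.06 for MMP16, -5.85 for ADCYAP1, -3.89 for CXCR2, 3.14 for GZMB, 3.66 for MCC, 4.47 for SYT4, 4.77 for CAV1, 2.82 for VCX3A, -3.52 for SCN4A, -2.79 for TGFB1I1, -2.17 for INHBE and -2.15 for PCED1B. Among mast cell, eicosanoid and receptor genes, the difference was -3.21 for FCER1G, -1.62 for LTC4S, -0.98 for ALOX5AP, 2.45 for CYSLTR2, -1.52 for HPGDS, -1.71 for LAIR1, -1.12 for FCGR2B and -1.66 for MILR1. Among signalling genes and secreted factors, the difference was 1.97 for CCND1, 0.67 for FOSB, 0.80 for FOS, 0.60 for CCND3, -0.97 for PIK3IP1, -1.63 for TXNIP, 1.48 for BIRC3, 3.96 for CXCL10, 0.60 for CCL1, 1.35 for CCL2 and -0.73 for VEGFA. Among interferon and MHC class II genes, the difference was 2.14 for IFI44, 2.05 for OAS2, 3.67 for HLA-DRA and -0.60 for HLA-DPB1. Among adhesion and matrix genes, the difference was 1.89 for ITGB3, -1.99 for ITGB2, -1.32 for ITGA9, 0.79 for PLAU, -1.69 for MMP25, 1.25 for VIM, 2.79 for THBS1, 1.17 for TIMP3 and -0.98 for COL6A1. Among metabolic, stress and cell cycle genes, the difference was 1.56 for HMGCS1, 0.61 for INSIG1, 0.63 for CYP51A1, -0.63 for NDRG1, 0.85 for HSPA5, 0.76 for HSP90B1, -0.80 for TYMS and -0.78 for CDK1. In GS1-179L18.1, with at most 3 counts in each HMC-1.2 library, the difference was 8.96. Among genes of chromosome 18 and, for DHRS12, next to the fold limit, it was -7.75 for CTD-2594A10.4, -1.34 for LDLRAD4, -4.79 for RAX, 5.61 for RP11-169F17.1 and -1.21 for DHRS12. Among genes high in clone 2 replicate 3, the difference was 4.89 for SFRP1, 2.63 for FLNC, 7.99 for ALCAM, 4.23 for KRT8, 2.23 for PTRF, 2.24 for L1CAM and 1.54 for COL5A2. These 7 genes and CAV1 read over 4-fold higher in that library than in the other clone 2 libraries after 0.1 CPM was added to those. OSR1 and CTD-2594A10.4 had 0 counts in clone 2 and GS1-179L18.1 had 0 in clone 1, so the size of these 3 differences depends on the prior count of the fit.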

How the results depend on the processing

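The count of 2630 genes called against HMC-1.2 lay between 2126 and 3026 in DESeq2, with other scalings and filters, with only the groups compared, with a term for resent libraries and with limma on log2(FPKM + 0.1), and was 2637 with the replicate block. Deviations from the group means in clone 2 and HMC-1.2 libraries of the same number correlated at 0.197, -0.0029 and 0.426. Whether the numbers pair the libraries was not tested. A test against the 1.5-fold limit called 1612 (753 higher, 859 lower) and limma on log2(FPKM + 1) 1453 (725 and 728), and against clone 1 these called 837 (300 and 537) and 969 (276 and 693). Leaving out each library gave 2543 to 2639 (1208 to 1308 higher, 1318 to 1388 lower), and against clone 1 1866 to 1946 (642 to 690, 1222 to 1271). The median of chromosome 18 was 0.49 with genes of at least 1 CPM, 0.29 with limma on log2(FPKM + 1) and 0.45 to 0.48 without single libraries. Its short arm gave -0.77 with that limma fit and -1.07 to -1.05 without single libraries, and its long arm 0.58 with upper quartile factors, 0.60 at 1 CPM, 0.48 with limma and 0.59 to 0.61. A pseudocount of 1 shrinks changes of low genes by construction.

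KRT8 reversed to -0.04 with limma on log2(FPKM + 0.1), and over single libraries ranged from -1.71 to 4.30. PTRF ranged from -0.40 to 3.14. Both minima were without clone 2 replicate 3. Of 149 called named genes 97 kept the call in every alternative, and the losses were most in limma on log2(FPKM + 1), 42, and in the test against the fold limit, 35. Of 527 list medians 11 changed sign, over 7 lists with medians of at most 0.14 in size. Depth limits genes under 1 CPM.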
